A study of Homo sapiens with 4 samples.

Results

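Keratin genes of both types were followed through 4 mRNA sequencing libraries of PK-1, an established human line of well-differentiated pancreatic ductal adenocarcinoma. Every gene whose symbol is KRT followed by a number, with or without a final letter A, B or C, was taken, which gave 55 of the 53826 entities in the tables. Of these, 29 encode type I and 26 encode type II keratins, and genes of keratin-associated proteins, antisense transcripts and pseudogenes were not included. The stable SPRR1A library came from PK-1 cells transduced with a pMXs retrovirus carrying SPRR1A with a FLAG tag, and its control, stable DsRed, from cells transduced with the same vector carrying the red fluorescent protein DsRed. The transient SPRR1A library came from PK-1 cells transfected with a pCAG plasmid carrying FLAG-tagged SPRR1A, and its control, transient GFP, from cells transfected with pCAG carrying green fluorescent protein, with RNA taken 48 h after transfection. SPRR1A encodes a small proline-rich protein that is cross-linked into the envelope of cornifying cells. Each condition had 1 library, so that replicates could not be compared and no test was run, and the spread between cultures is unknown.

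Keratins are the intermediate filament proteins of epithelial cells. A filament is built from pairs of 1 type I and 1 type II protein, and the pair in use marks the kind of epithelium. KRT8 and KRT18, with KRT7 and KRT19, form the filaments of simple epithelia such as the pancreatic ducts, and pathologists read KRT7 and KRT19 as markers of ductal cells. KRT5 pairs with KRT14 or KRT15 in the basal layer of squamous epithelium, KRT6 proteins pair with KRT16 or KRT17 in stressed or wounded epithelium, KRT4 pairs with KRT13 in the mucosal lining of mouth and esophagus, and KRT1 pairs with KRT10 in the upper epidermis. In pancreatic cancer, KRT5 is used as a marker of squamous differentiation.

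The unit of all levels below is the log2 of the TPM, in which the reads of a gene are divided by transcript length and each library is scaled to the same total. Division by length lets levels be compared between genes. Levels in different libraries also depend on how much of that total other genes take, such as SPRR1A in transient SPRR1A cells. No deposited log2 value is below 0, and genes with a TPM of 1 or less are set to that floor, while the depth in reads is unknown. The labels were checked with SPRR1A itself, whose log2 TPM was 0.75 in stable DsRed, 10.93 in stable SPRR1A, 3.56 in transient GFP and 16.60 in transient SPRR1A cells. Its mRNA took 9.90% of the TPM total in transient SPRR1A cells and 0.196% in stable SPRR1A cells. All 7 markers of ductal epithelial cells were above the floor in at least 1 library, although MUC1, an apical mucin, was low, with a log2 TPM of 0 in stable DsRed, 0.51 in stable SPRR1A, 0.80 in transient GFP and 0.90 in transient SPRR1A cells. The summed TPM of those 7 markers, 4 of which are keratins, ranged from 18255 in transient SPRR1A cells to 26470 in stable DsRed cells. All 3 endothelial and both islet markers were at 0 in every library, as were 3 of 4 leukocyte markers, 5 of 7 mesenchymal markers, 3 of 4 acinar markers, 3 of 5 suprabasal keratinocyte markers and 1 of 2 melanocyte markers. PTPRC, CD3E, COL3A1, DCN, CPA1, KRT1 and MLANA were among those at 0. Of the mesenchymal markers, VIM was above the floor at a log2 TPM of 5.08 to 5.32 and COL1A1 at 1.96 to 2.62. Of the suprabasal keratinocyte markers, IVL was at 4.73 to 5.18 and KRT10 at 4.98 to 5.45. The acinar PRSS1 was at 0.64 to 1.86 and the melanocyte PMEL at 2.34 to 2.78. The summed TPM of the mesenchymal list ranged from 37.6 to 44.9 and that of the leukocyte list, where CD68 alone was above the floor, from 15.9 to 30.03, with both transient libraries above both stable ones. It ranged from 1.56 to 3.62 for the acinar, 5.07 to 6.86 for the melanocyte and 58.0 to 74.7 for the suprabasal keratinocyte list, and the part of such markers in the keratin levels was not tested.

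Several keratins are near copies of each other, and this bears on which levels can be assigned to 1 gene. KRT6A, KRT6B and KRT6C each have 1692 coding bases, of which 51 positions differ between any of the 3 genes. KRT6A was 97.5% identical to KRT6B and 97.9% identical to KRT6C, and KRT6B was 98.5% identical to KRT6C. The stretch of 60 coding bases where the 3 genes differ most is shown because it holds 9 of the 51 differing positions. It lies in exon 2, at coding positions 663 to 722 counted from the A of the start codon, on the minus strand of chromosome 12 (GRCh38) at chr12:52491555-52491614 for KRT6A, chr12:52450439-52450498 for KRT6B and chr12:52472099-52472158 for KRT6C, and capitals mark the 9 positions at which the genes differ.
KRT6A: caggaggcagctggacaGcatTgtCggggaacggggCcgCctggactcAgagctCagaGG
KRT6B: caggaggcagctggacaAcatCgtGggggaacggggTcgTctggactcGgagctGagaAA
KRT6C: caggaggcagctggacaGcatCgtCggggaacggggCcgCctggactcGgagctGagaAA

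The bases just before the transcription start of KRT4 and KRT5 are shown because KRT4 differed most of all expressed keratins between libraries, and KRT5 differed in the opposite direction between transient and stable cells. Both genes lie on the minus strand of chromosome 12, and each sequence holds the 250 bases before the start that RefSeq gives in GRCh38.p14, at chr12:52814117-52814366 for KRT4 and chr12:52520395-52520644 for KRT5. Capitals mark a TATA match.
KRT4: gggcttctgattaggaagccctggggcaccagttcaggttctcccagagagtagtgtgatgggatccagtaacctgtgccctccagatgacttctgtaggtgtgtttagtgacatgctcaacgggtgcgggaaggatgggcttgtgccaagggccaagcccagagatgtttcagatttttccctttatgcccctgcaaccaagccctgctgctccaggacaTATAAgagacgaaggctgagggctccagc
KRT5: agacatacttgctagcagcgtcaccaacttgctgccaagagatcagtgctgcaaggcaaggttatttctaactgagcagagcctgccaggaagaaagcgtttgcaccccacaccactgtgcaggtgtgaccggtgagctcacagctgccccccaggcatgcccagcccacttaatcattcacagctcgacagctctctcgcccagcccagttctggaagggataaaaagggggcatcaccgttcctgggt

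Of the 21 keratins above the floor, 5 had such a sequence here (KRT4, KRT5, KRT8, KRT10 and KRT40). For KRT8 (chr12:52926470-52926719) it lies inside the annotated span of the gene, and for KRT40 (chr17:40987002-40987251) it overlaps the span. The start used for KRT8 and KRT40 is thus within the annotated gene. The 5 sequences were searched on both strands for TATAA, for the AP-1 motif TGANTCA, for the GC box GGGCGG and for CCAAT, none of which overlapped a different motif in these sequences. TATAA was found in KRT4, KRT10 and KRT40, 29 bases before the start in KRT4, and in 18.9% of all 35116 promoters. CCAAT was found in KRT10 and in 32.0% of all promoters. TGANTCA and GGGCGG were found in 0 of the 5 keratins, against 6.57% and 42.6% of all promoters. These are matches of letters in a short window and say nothing on whether a factor bound there.

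The keratin mRNA of PK-1 cells was led by the simple epithelial keratins and the mucosal KRT13. Of the 55 keratins, 21 were above the floor in at least 1 library (10 type I and 11 type II), 19 were above it in all 4 libraries, and 34 were at 0 throughout. Only 5 keratins, KRT18, KRT7, KRT8, KRT13 and KRT19, exceeded a TPM of 1000 in all 4 libraries, and they held 94.5% of the keratin TPM in stable DsRed, 93.3% in stable SPRR1A, 89.9% in transient GFP and 90.0% in transient SPRR1A cells. KRT18 was the highest keratin in every library. Together the keratins took 3.15% of the TPM total in stable DsRed, 3.11% in stable SPRR1A, 2.48% in transient GFP and 2.24% in transient SPRR1A cells. Without SPRR1A in the total, the share in transient SPRR1A cells was 2.49%. The ratio of summed type II to summed type I keratin TPM was 0.913 in stable DsRed, 0.962 in stable SPRR1A, 0.933 in transient GFP and 0.947 in transient SPRR1A cells, so that both types were present in nearly equal amounts in every library. In a whole culture, fewer cells of a kind and less RNA per cell cannot be told apart.

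**Figure D1:**
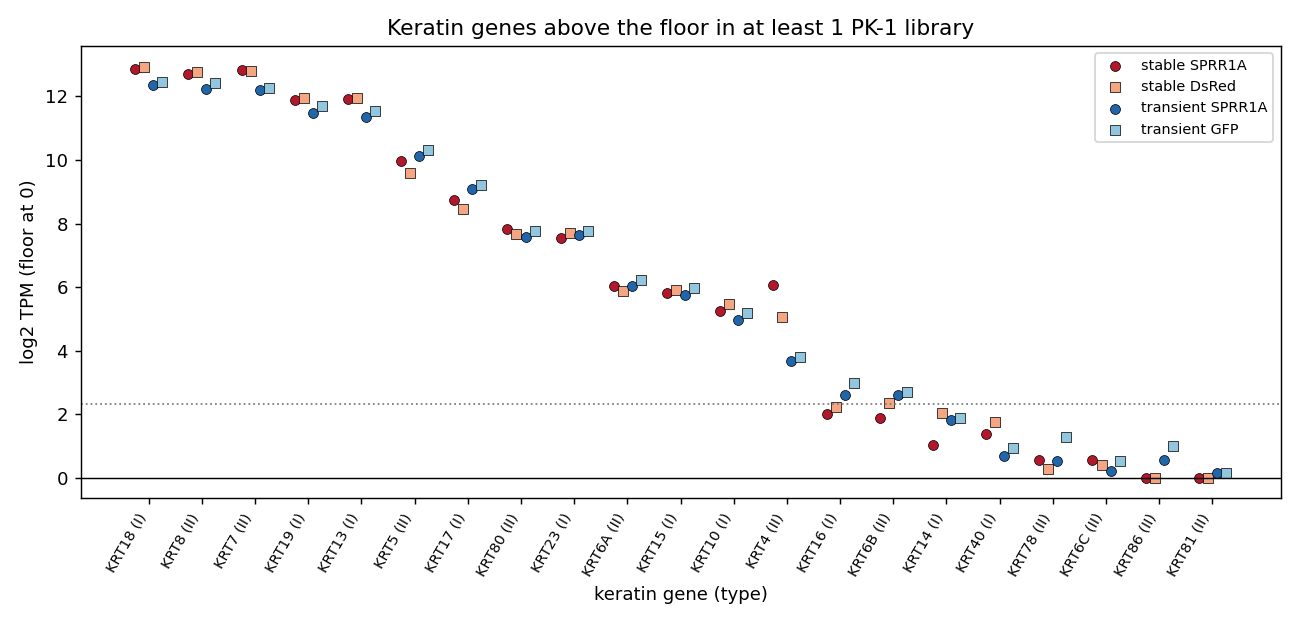
Level of the 21 keratins above the floor, as log2 TPM (vertical axis, floor at 0), 1 point per library, with the type of each keratin in brackets and a dotted line at a TPM of 5. The 5 highest keratins lie above 11 in all 4 libraries, and KRT4 has the widest spread, from 3.68 to 6.07.

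The simple epithelial keratins KRT7, KRT8, KRT18 and KRT19 made up 81.8% of the keratin TPM in stable DsRed, 80.9% in stable SPRR1A, 77.8% in transient GFP and 78.5% in transient SPRR1A cells. KRT18 had a log2 TPM of 12.94 in stable DsRed, 12.87 in stable SPRR1A, 12.45 in transient GFP and 12.36 in transient SPRR1A cells. Its partner KRT8 was at 12.76, 12.71, 12.41 and 12.23 in the same order. The ratio of KRT8 to KRT18 TPM stayed between 0.882 and 0.971. For KRT7, a type II keratin of ductal epithelia, the log2 TPM was 12.78 in stable DsRed, 12.82 in stable SPRR1A, 12.28 in transient GFP and 12.20 in transient SPRR1A cells. KRT19, the smallest type I keratin and a duct marker, was at 11.96 in stable DsRed, 11.89 in stable SPRR1A, 11.70 in transient GFP and 11.47 in transient SPRR1A cells. All 4 genes were higher in both stable libraries than in both transient ones, and the share of all entities with that order was not counted. Levels in transient SPRR1A cells also depend on the 9.90% of the TPM total that SPRR1A took there. KRT20, a type I keratin of the intestinal lining, was at 0 in all 4 libraries.

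The mucosal pair was strongly uneven. KRT13 had a log2 TPM of 11.96 in stable DsRed, 11.92 in stable SPRR1A, 11.55 in transient GFP and 11.34 in transient SPRR1A cells, which put it beside KRT19. Its usual partner KRT4 was at 5.05 in stable DsRed, 6.07 in stable SPRR1A, 3.80 in transient GFP and 3.68 in transient SPRR1A cells. As TPM, KRT4 was at 33.2 in stable DsRed, 67.4 in stable SPRR1A, 13.9 in transient GFP and 12.8 in transient SPRR1A cells. The stable libraries thus lay further apart than the transient ones. Because the spread between cultures is unknown, neither order could be judged. The ratio of KRT13 to KRT4 TPM was 120 in stable DsRed, 57.4 in stable SPRR1A, 215 in transient GFP and 202 in transient SPRR1A cells.

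KRT5 was the highest of the basal keratins and was nearly without KRT14. Its log2 TPM was 9.59 in stable DsRed, 9.96 in stable SPRR1A, 10.30 in transient GFP and 10.12 in transient SPRR1A cells. KRT14, its main partner in the epidermis, was near the floor at 2.04 in stable DsRed, 1.03 in stable SPRR1A, 1.87 in transient GFP and 1.83 in transient SPRR1A cells. KRT15, the other basal type I keratin, was at 5.92 in stable DsRed, 5.82 in stable SPRR1A, 5.99 in transient GFP and 5.76 in transient SPRR1A cells. Across the libraries the ratio of KRT5 TPM to that of KRT14 ranged from 187 to 485, and to that of KRT15 from 12.7 to 20.4. The type I keratin nearest to KRT5 in level, leaving aside the abundant ones above it, was KRT17, with a ratio of KRT5 to KRT17 TPM from 2.03 to 2.31. The basal class held 2.65% of the keratin TPM in stable DsRed, 3.38% in stable SPRR1A, 5.34% in transient GFP and 5.21% in transient SPRR1A cells. Most of this was KRT5, which alone held 2.44%, 3.19%, 5.07% and 4.95% in the same order.

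The 5 stress and wound keratins were all above the floor in all 4 libraries, at very different levels. KRT17, a type I keratin induced in wounded and malignant epithelium, had a log2 TPM of 8.45 in stable DsRed, 8.74 in stable SPRR1A, 9.23 in transient GFP and 9.10 in transient SPRR1A cells. KRT6A, a type II keratin of wound edges and the hair follicle, was at 5.88, 6.04, 6.21 and 6.04 in the same order, which is a narrow range. KRT6B was far lower, at 2.34 in stable DsRed, 1.88 in stable SPRR1A, 2.70 in transient GFP and 2.61 in transient SPRR1A cells. KRT16, a type I partner of the KRT6 proteins, was at 2.22 in stable DsRed, 2.02 in stable SPRR1A, 2.99 in transient GFP and 2.59 in transient SPRR1A cells. KRT6C stayed between 0.23 and 0.57. KRT17, KRT16, KRT6B and KRT6A were higher in both transient libraries than in both stable ones, while KRT6C did not follow that order. For KRT6A, transient SPRR1A and stable SPRR1A cells were level to 2 decimals. The share of all entities with that order was not counted. Between transient GFP and stable DsRed cells, 6.86% of all entities tested were over 2-fold higher in the transient cells and 0.661% over 2-fold lower. The class held 1.33% of the keratin TPM in stable DsRed, 1.62% in stable SPRR1A, 2.78% in transient GFP and 2.80% in transient SPRR1A cells.

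Among the remaining epithelial keratins, KRT80, a type II keratin, had a log2 TPM of 7.66 in stable DsRed, 7.82 in stable SPRR1A, 7.77 in transient GFP and 7.57 in transient SPRR1A cells. KRT23, a type I keratin, was at 7.69, 7.53, 7.76 and 7.65 in the same order. Both varied by under 0.3 across the 4 libraries. KRT10, the type I keratin of the upper epidermis, was at 5.45 in stable DsRed, 5.26 in stable SPRR1A, 5.18 in transient GFP and 4.98 in transient SPRR1A cells, while KRT1, its epidermal partner, was at 0 in every library, as were KRT2 and KRT9. KRT78 was near the floor at 0.28 in stable DsRed, 0.56 in stable SPRR1A, 1.28 in transient GFP and 0.53 in transient SPRR1A cells. Of the 17 hair and nail keratins 3 were above the floor. KRT40 was at 1.77 in stable DsRed, 1.38 in stable SPRR1A, 0.93 in transient GFP and 0.69 in transient SPRR1A cells. KRT86 was listed at 0 in both stable libraries and was at 1.01 in transient GFP and 0.56 in transient SPRR1A cells, and KRT81, also at 0 in both stable libraries, was at 0.16 and 0.15. The 34 keratins at 0 in all libraries were KRT20, KRT1, KRT2, KRT9, the corneal KRT3 and KRT12, KRT24, KRT76, KRT77, KRT79, the keratin-like KRT222, all 9 keratins of the inner root sheath and companion layer, and the other 14 hair and nail keratins. A value of 0 means a TPM of 1 or less and not that the gene was silent.

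In the order of the keratin genes along each chromosome, most of those above the floor lay in runs, separated by keratins at 0. Such runs were KRT6B, KRT6C, KRT6A and KRT5 on chromosome 12, and KRT13, KRT15 and KRT19 on chromosome 17. KRT4, KRT10, KRT23 and KRT40 stood alone between keratins at 0. The type II locus on chromosome 12 holds 27 keratins in these tables, of which 12 were above the floor, and KRT18 is the 1 type I gene there. The type I locus on chromosome 17 holds the other 28, of which 9 were above the floor. KRT4 (chr12:52806549-52814116) stands apart from the expressed KRT5 (chr12:52514575-52520394), with 9 keratins between them that were all at 0. KRT79, the gene between KRT4 and KRT78, was also at 0. KRT7 lies at chr12:52233243-52255853, KRT13 at chr17:41500981-41505612 and KRT17 at chr17:41619442-41624575. KRT8 (chr12:52897191-52949860) and KRT18 (chr12:52948855-52952906) overlap by their annotated spans and are transcribed from opposite strands.

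How much of each transcript is found in other genes was measured on the canonical transcripts of GENCODE 44, as the share of stretches of 50 or 100 bases that also occur, on either strand, in a transcript of another gene. At 50 bases 3 of the 21 keratins, KRT4, KRT40 and KRT78, shared nothing, and 12 shared over 10%. The share at 50 and 100 bases was 53.1% and 31.4% for KRT6C, 46.6% and 24.4% for KRT6B, and 39.2% and 18.2% for KRT6A, mostly with each other. For KRT86 it was 44.8% and 32.0%, mostly with KRT81. KRT14 shared 24.2% and 6.05%, the largest share with KRT16. KRT18 shared 52.8% and 18.5%, with a KRT8 transcript that overlaps its start on the opposite strand and with KRT18 pseudogenes, and KRT8 shared 39.2% and 7.12%, with KRT8 pseudogenes. KRT5 shared 4.52% and 1.64%. Levels of KRT6B, KRT6C, KRT14, KRT16, KRT81 and KRT86 are therefore uncertain, because they are low and share sequence with other genes, and how reads with several matches were divided is not given in the sources used here. Of the 120 KRT8 and KRT18 pseudogene entries in the tables, 0 were above the floor.

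**Figure D2:**
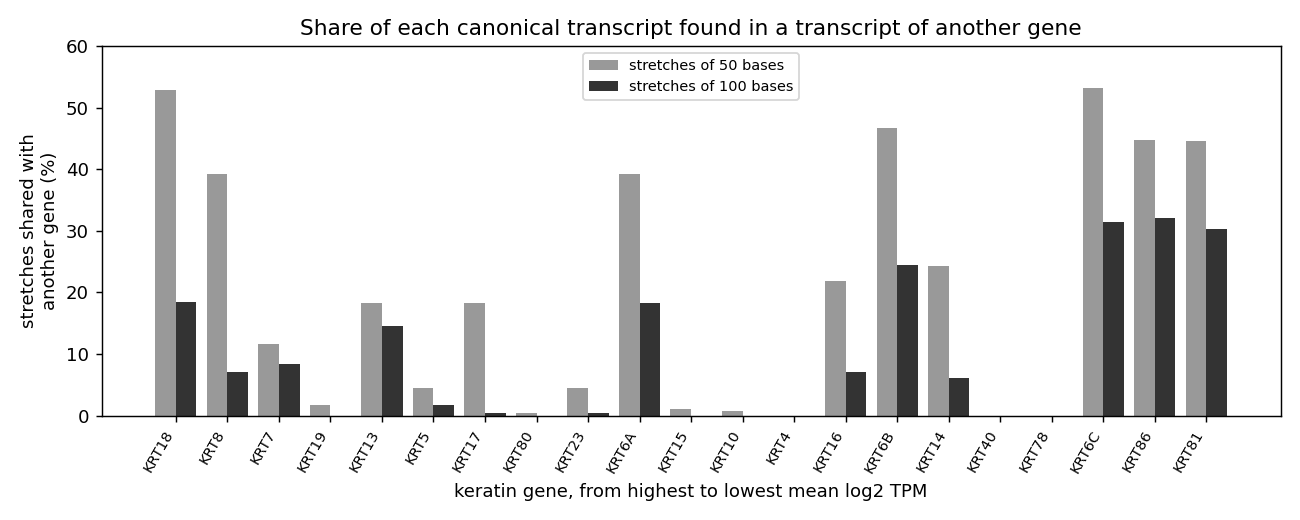
Share of the 50-base and 100-base stretches of each canonical transcript that occur in a transcript of another gene (vertical axis, percent), for the 21 keratins in order of level. KRT4 shares none at either length, while KRT6C shares 53.1% at 50 bases.

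In the stable model, stable SPRR1A cells were compared with stable DsRed cells. With 1 library of each, an effect of SPRR1A cannot be told apart from a difference between cultures. KRT4 was higher in stable SPRR1A cells and KRT14 was lower, and the other 17 keratins tested were within 2-fold. A gene was counted past 2-fold when its log2 difference was above 1 or below -1, without a filter on level, and keratins above the floor in at least 1 of the libraries compared were tested. KRT4 differed by 1.02, with 2.03 times the TPM, and was 1 of the 19 keratins tested past 2-fold upward, where 0.526% of all 13310 entities tested were. After subtracting the median difference of all entities its difference was 0.96, which is under the threshold. KRT14 differed by -1.004, between TPMs of 2.05 and 4.11 where the floor and shared sequence bear on the value, and was the 1 keratin past 2-fold downward, where 0.421% of all entities tested were.

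Apart from KRT4, keratins at or above a TPM of 5 in both stable libraries differed by less than 0.4 in either direction. Over the 13 keratins that reached a TPM of 5 in both libraries the median log2 difference was -0.04, with 6 higher and 7 lower, against a median of 0.06 over all 9835 such entities. The central 95% of those entities spanned -0.27 to 0.41, and KRT4 was the 1 keratin outside it. KRT5 differed by 0.37 and KRT17 by 0.29, which placed them at the 96.3 and 91.5 percentiles of all entities. KRT80 and KRT6A each differed by 0.16. The abundant keratins were nearly level, with log2 differences of -0.05 for KRT8, -0.07 for KRT18, -0.07 for KRT19, -0.04 for KRT13 and 0.03 for KRT7, the last turning to -0.03 after the median was subtracted. KRT15 differed by -0.10, KRT23 by -0.16 and KRT10 by -0.19. Below a TPM of 5 in at least 1 library, the differences were -0.47 for KRT6B, -0.21 for KRT16, 0.17 for KRT6C, 0.28 for KRT78 and -0.39 for KRT40.

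In the transient model, transient SPRR1A against transient GFP cells, also with 1 library of each, 0 keratins were past 2-fold in either direction. Of all 13717 entities tested, 0.19% were past it upward and 0.7% downward. All 15 keratins that reached a TPM of 5 in both libraries had lower values in transient SPRR1A cells, with a median log2 difference of -0.18. The median of all 10154 such entities was also -0.18, in a library where SPRR1A took 9.90% of the TPM total. After that shift was subtracted, the keratin median was 0.01, with 9 keratins higher and 6 lower, so the direction of most keratins turned with the scaling. The differences before and after the subtraction were -0.18 and 0.00 for KRT5, -0.12 and 0.06 for KRT4, -0.08 and 0.11 for KRT7, and -0.09 and 0.09 for KRT18. For KRT8 they were -0.18 and 0.01, for KRT19 -0.23 and -0.05, for KRT13 -0.21 and -0.03, for KRT15 -0.22 and -0.04, and for KRT17 -0.13 and 0.05. These 9 genes stayed within 0.11 of the common shift. KRT6A differed by -0.17 before and 0.01 after it, KRT6B by -0.10 and 0.09, KRT14 by -0.04 and 0.15, and KRT23 by -0.11 and 0.07. KRT16 differed by -0.39 before and -0.21 after the subtraction, and KRT78, near the floor, by -0.75 and -0.57. None of the 15 lay outside the central 95% of all entities, which spanned -0.43 to 0.07.

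**Figure D3:**
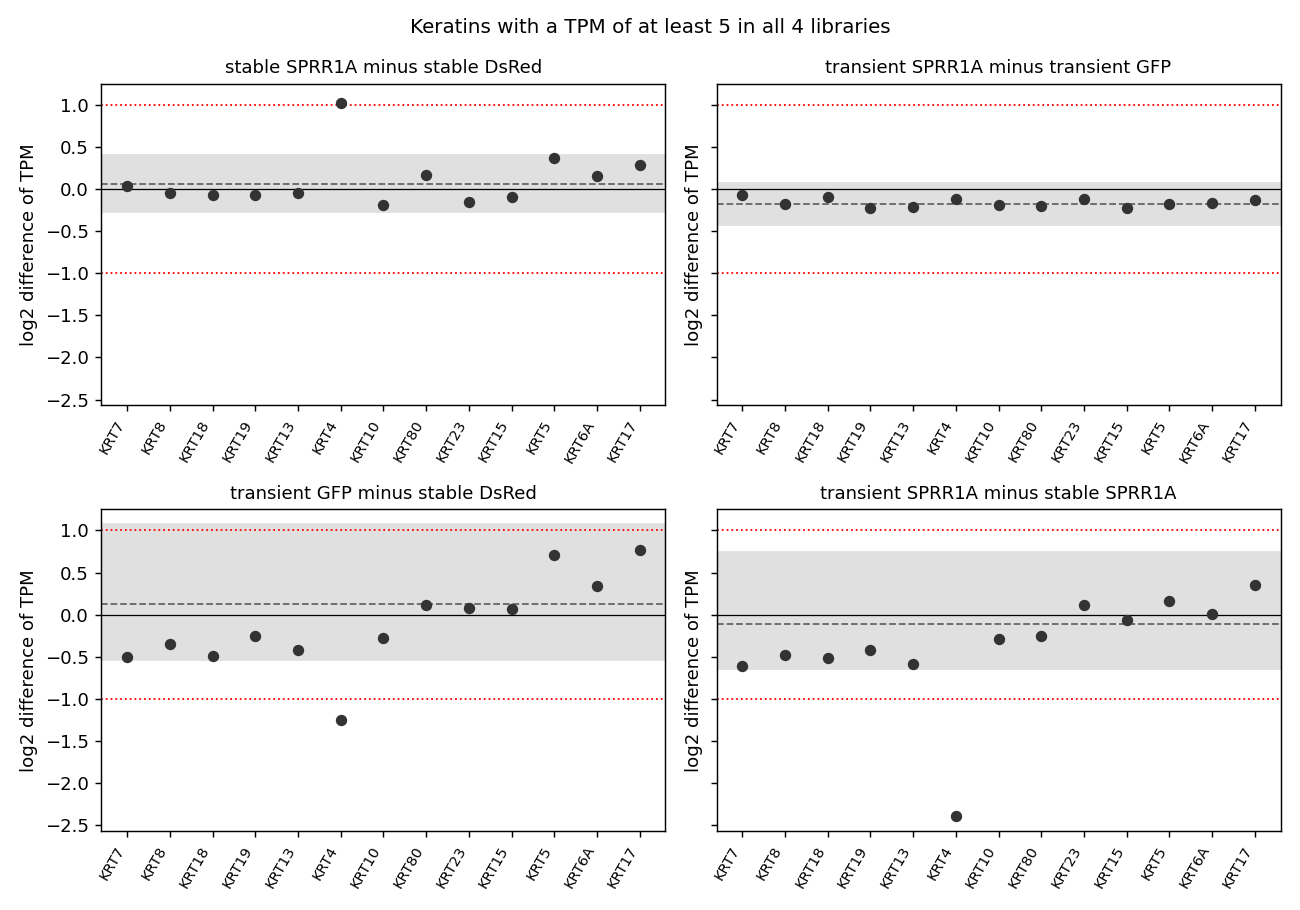
Log2 difference of the 13 keratins that reached a TPM of 5 in all 4 libraries (vertical axis), in 4 panels for the 4 comparisons. The grey band is the central 95% of all entities that reached a TPM of 5 in both libraries, the dashed line their median and the dotted lines the 2-fold threshold, and KRT4 lies outside the band in every panel but that of transient SPRR1A minus transient GFP.

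The remaining comparisons set transient against stable cells, which differ in vector, fluorescent protein, delivery, level of SPRR1A and culture history, which cannot be told apart, and these comparisons use the same libraries as those above. Between the controls, transient GFP minus stable DsRed, 1 of 21 keratins, KRT4, was past 2-fold downward, where 0.661% of all 13761 entities tested were. KRT86 and KRT78, 2 of the 21, were past it upward, where 6.86% were. KRT4 differed by -1.25, and by -1.38 after subtraction of the median of all entities, which was 0.12. KRT86, listed at 0 in stable DsRed cells, differed by 1.01 and KRT78 by 1.004, and both fell under the threshold after subtraction, at 0.89 and 0.88. The simple epithelial and mucosal keratins were lower in transient GFP cells, with differences of -0.51 for KRT7, -0.49 for KRT18, -0.35 for KRT8, -0.26 for KRT19 and -0.41 for KRT13. The stress and basal keratins KRT17, KRT16 and KRT5 were higher, by 0.77, 0.76 and 0.71, and by 0.65, 0.64 and 0.58 after subtraction of the median.

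The other keratins were within 2-fold. KRT6A differed by 0.34, KRT6B by 0.36, KRT6C by 0.13, KRT14 by -0.17 and KRT10 by -0.28. KRT40, low in all libraries, differed by -0.84. KRT80, KRT23 and KRT15 differed by 0.11, 0.07 and 0.06, and turned to -0.01, -0.05 and -0.06 after subtraction. Over the 14 keratins that reached a TPM of 5 in both controls the median difference was -0.10, with 7 higher and 7 lower, and it was -0.22 after subtraction, with 4 higher and 10 lower. The central 95% of all 9810 such entities spanned -0.54 to 1.08, and KRT4 was the 1 keratin outside it.

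Between the SPRR1A libraries, transient SPRR1A minus stable SPRR1A, 1 of 21 keratins, again KRT4, was past 2-fold downward, where 0.974% of all 13549 entities tested were, and 0 keratins were past it upward, where 2.61% were. KRT4 differed by -2.39, with 0.19 times the TPM, and by -2.28 after subtraction of the median of all entities, which was -0.11. KRT7 differed by -0.61, KRT13 by -0.58, KRT18 by -0.51, KRT8 by -0.48 and KRT19 by -0.42, and all 5 stayed negative after subtraction. KRT17 differed by 0.35 and KRT5 by 0.16, or 0.47 and 0.28 after subtraction. The abundant keratins were thus lower, and KRT17 and KRT5 higher, in the transient cells. The low stress and basal keratins differed by more, at 0.73 for KRT6B, 0.58 for KRT16 and 0.80 for KRT14, with KRT6A at 0.00, or 0.12 after subtraction, and KRT6C at -0.34. KRT23 differed by 0.12 and KRT15 by -0.06, the latter turning to 0.05 after subtraction. Over the 13 keratins that reached a TPM of 5 in both libraries the median was -0.28, with 4 higher and 9 lower, and -0.17 after subtraction, with 5 higher and 8 lower.

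The comparison of the controls and that of the SPRR1A libraries have no library in common. Of the 13 keratins that reached a TPM of 5 in all 4 libraries, 11 (84.6%) had the same sign in both, KRT80 and KRT15 being the exceptions, against 67.4% of all 9658 such entities. After subtraction of the medians the count was again 11, with KRT23 and KRT15 as the exceptions, against 80.2% of all entities, so that a shared direction was nearly as frequent among entities in general.

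Ratios between genes of the same library do not depend on the scaling of that library. The ratio of KRT7 to KRT5 TPM was 9.17 in stable DsRed, 7.26 in stable SPRR1A, 3.95 in transient GFP and 4.24 in transient SPRR1A cells, so that KRT5 stood nearest to the ductal keratin in the transient cells. For KRT19 to KRT17 it was 11.3 in stable DsRed, 8.84 in stable SPRR1A, 5.55 in transient GFP and 5.18 in transient SPRR1A cells. For KRT7 to KRT4 it was 213 in stable DsRed, 107 in stable SPRR1A, 357 in transient GFP and 368 in transient SPRR1A cells. In the first and second of these ratios stable SPRR1A lay between stable DsRed and the transient cells, and in the third it lay beyond stable DsRed on the other side. The log2 ratio of summed basal and stress keratins to summed simple epithelial keratins was -4.36 in stable DsRed, -4.02 in stable SPRR1A, -3.26 in transient GFP and -3.29 in transient SPRR1A cells. With KRT5 and KRT15 alone, which share little sequence with other genes, it was -4.96, -4.58, -3.87 and -3.92 in the same order, and the libraries kept their order. KRT5 holds most of either sum, so the second ratio is not a separate check of the first. KRT15 itself differed by 0.06 between the controls and by -0.06 between the SPRR1A libraries.

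**Figure D4:**
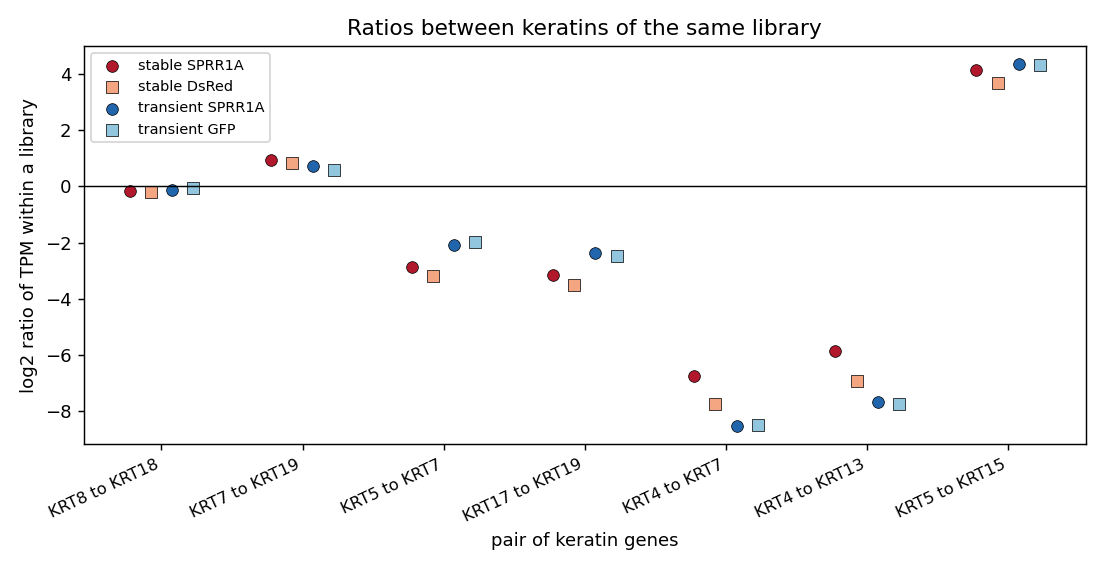
Log2 ratio of TPM between pairs of keratins within each library (vertical axis), 1 point per library. The KRT8 to KRT18 ratio lies close to 0 in all 4 libraries, the KRT5 to KRT7 ratio is higher in both transient libraries, and the KRT4 to KRT7 ratio is highest in stable SPRR1A cells.

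Genes whose products hold keratin filaments or act on keratin genes were counted from lists. Of 14 genes for keratin linkers and filament organisers, 13 were above the floor and 0 were past 2-fold in any of the 4 comparisons, in which 0.19% to 6.86% of all entities tested were past it in a given direction, so that 0 of 13 does not set the list apart. JUP, which encodes the junction protein plakoglobin, was the highest, with a log2 TPM of 8.66 in stable DsRed, 8.67 in stable SPRR1A, 8.995 in transient GFP and 8.78 in transient SPRR1A cells. The median difference of the 10 linkers that reached a TPM of 5 was 0.09 for stable SPRR1A minus stable DsRed, -0.21 for transient SPRR1A minus transient GFP, 0.18 for the 2 controls and -0.18 for the 2 SPRR1A libraries. Of 15 genes for other intermediate filament proteins 7 were above the floor and 0 were past 2-fold in any comparison, beside the same shares of all entities. LMNA, which encodes nuclear lamins A and C, was the highest of them at 8.79, 8.75, 8.63 and 8.46 in the same order.

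Of 16 transcription factors known to act on keratin genes 14 were above the floor, and 0 were past 2-fold between SPRR1A and control cells in either model, where under 1% of all entities tested were past it in each direction. FOSL1, a subunit of AP-1, was the highest, with a log2 TPM of 8.43 in stable DsRed, 8.33 in stable SPRR1A, 8.24 in transient GFP and 8.13 in transient SPRR1A cells. Between the controls 3 were past 2-fold upward and 0 downward, which is 3 of the 14, against the 6.86% of all entities. Between the SPRR1A libraries 2 were past it upward, KLF4 and OVOL1, against 2.61% of all entities. KLF4, a factor of differentiating squamous epithelium, was at 5.22 in stable DsRed, 5.35 in stable SPRR1A, 6.71 in transient GFP and 6.53 in transient SPRR1A cells, a log2 difference of 1.48 for the controls and 1.18 for the SPRR1A libraries. TP63, which encodes the p63 factor of basal squamous cells, was at 4.04 in stable DsRed, 4.42 in stable SPRR1A, 5.05 in transient GFP and 4.85 in transient SPRR1A cells, a log2 difference of 1.02 for the controls and 0.43 for the SPRR1A libraries. OVOL1, a factor of epidermal differentiation, was at 1.55, 1.66, 2.57 and 2.81 in the same order, with differences of 1.02 and 1.15. After subtraction of the median between the controls, KLF4 remained past 2-fold at 1.36, while TP63 was at 0.89 and OVOL1 at 0.90. Between the SPRR1A libraries, the values after subtraction were 1.30 for KLF4, 1.26 for OVOL1 and 0.54 for TP63. These 3 factors were named because they passed 2-fold upward in at least 1 of these comparisons, so their direction follows from that choice. OVOL1 was below a TPM of 5 in both stable libraries. Over the listed factors that reached a TPM of 5, the median difference was 0.38 for the controls and 0.08 for the SPRR1A libraries. The medians of all entities were 0.12 and -0.11. Whether the factors had a part in the keratin levels was not tested.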

How the data were processed

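RNA of 4 PK-1 cultures was sequenced as stranded mRNA libraries in paired-end mode. Alignment by the authors was to the human transcriptome (hg38), in Strand NGS with its default settings, and the log2 TPM per gene was deposited, with a floor at 0. Versions, annotation release, read length and how reads with several matches were handled are not given in the sources used here, and depth in reads is unknown, so that no counting error could be set.

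From these values the log2 difference was computed for 4 comparisons of 1 library each, for entities above the floor in at least 1 of the 2 libraries. With 1 library per condition no test was run. A difference above 1 or below -1 was counted as past 2-fold. Medians were taken over entities that reached a TPM of 5 in both libraries. The keratins, the gene lists and the comparisons were chosen with earlier results of these data known. All 4 levels are given for each keratin with a TPM of at least 5 in at least 1 library or past 2-fold in any comparison. Other genes are named as the highest of their list or past 2-fold. Beyond these, SPRR1A is named as the check of the labels, KRT16P2 as a pseudogene above the floor, and some cell type markers. PRSS1, of the acinar markers, was the other listed gene past 2-fold, with a log2 difference of 1.07 between the SPRR1A libraries. MUC1, CD68 and the markers named at 0 or above the floor were picked after their values were seen.

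All 55 keratins were placed by Entrez Gene identifier on RefSeq GRCh38.p14. Sequences were taken from GENCODE 44 transcripts and from RefSeq promoters. Alternatives were log2(TPM + 1), log2(TPM + 0.1), a minimum TPM of 5, SPRR1A left out of the TPM total, centring on the median, keratins at the floor set to a TPM of 1, and, for the type ratio, leaving out KRT6A, KRT6B, KRT6C, KRT14, KRT16 and KRT17. The calculations were tested on simulated data. Python 3.11.15, numpy 2.4.6, pandas 2.3.3 and matplotlib 3.10.9 were used.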

Additional observations from a re-analysis of the deposited data

Results flagged for a closer look

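With 1 library per condition, 6 of the 13 keratins that reached a TPM of 5 in all 4 libraries had opposite signs in the models. They were higher with SPRR1A than with DsRed in stable cells and lower with SPRR1A than with GFP in transient cells. This difference was not tested. The medians of all entities had these same signs, at 0.06 for stable SPRR1A minus stable DsRed and -0.18 for transient SPRR1A minus transient GFP. All 15 keratins that reached a TPM of 5 in both transient libraries were lower with SPRR1A. The 6 are therefore simply the keratins higher in stable SPRR1A cells, and the share of all entities with this pattern was not counted. The stable log2 difference exceeded the transient one by 1.14 for KRT4, 0.55 for KRT5, 0.42 for KRT17, 0.37 for KRT80, 0.33 for KRT6A and 0.11 for KRT7. After subtraction of the median of all entities 2 of the 6, KRT80 and KRT7, still had opposite signs, and for KRT7 these were the reverse of the earlier ones. Among the 151 keratin pseudogene entries, which the comparisons do not use, KRT16P2 was the 1 above the floor, with a log2 TPM of 0.13 in stable DsRed, 0.60 in stable SPRR1A, 0.40 in transient GFP and 0.66 in transient SPRR1A cells, and part of the KRT16 transcript is found in it.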

How the results depend on the processing

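No paired analysis was possible because the labels number no replicates and only 1 library stands for each condition. Of 52 alternative values for the counts, medians, shares and type ratios, 38 stayed within the tolerance (0.1 on the log2 scale, or 1.5 times a count). The count of keratins past 2-fold fell from 2 to 1 in the stable model and from 3 to 1 between the controls under log2(TPM + 1), log2(TPM + 0.1), a minimum TPM of 5 and centring on the median, and the genes lost lie near the floor or, for KRT4 in the stable model, fell to 0.96 on centring. When SPRR1A was left out of the total, the keratin median moved from -0.177 to -0.0264 in the transient model and from -0.28 to -0.14 between the SPRR1A libraries, and the keratin share in transient SPRR1A cells from 2.24% to 2.49%. Centring turned the median from negative to 0.00569 in the transient model, and moved it from -0.10 to -0.22 between the controls and to -0.17 between the SPRR1A libraries. KRT4 stayed past 2-fold in both comparisons of transient with stable cells in every alternative run. Depth in reads is unknown, and with 1 library per condition no spread between cultures can be given.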
